A study of Homo sapiens with 42 samples.

Results

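Gamma satellites are GC-rich tandem repeats that lie beside the centromeric alpha satellite arrays of several human chromosomes. The regions described here are the 64 whose names begin with gsat_, out of 2523 named satellite and transition regions of the T2T-CHM13 human assembly in the deposited count table. They were grouped by the repeat tag in brackets in each name and by the chromosome in the name. The tag GSAT marked 11 regions, GSATII 24, GSATII combined with TAR 16, GSATII combined with rnd-6_family-1431 2, GSATX 8 and GSATX combined with GSATII 3. GSAT, GSATII and GSATX are repeat-library families of gamma satellite, TAR is a repeat first known from chromosome ends, and a name of the form rnd-6_family-1431 is one that a de novo repeat finder gives.

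The libraries came from the human leukaemia line KG-1, which derives from acute myelogenous leukaemia, exposed for 1 h to 100 µM etoposide, to 20 µM mitoxantrone or to vehicle (called no drug). DNA was pulled down without formaldehyde with an antibody to DNA topoisomerase II alpha (TOP2A) or beta (TOP2B), treated with TDP2 and cut with BsmAI before library construction, and input DNA was sequenced beside it. The 42 libraries formed 12 groups: 4 replicas of the etoposide series and 3 of the mitoxantrone series, each with TOP2A, TOP2B and input, with and without drug. The 6 libraries of a replica shared a read length and a sequencing order. Read length was 38 bp in etoposide replica 1, 100 bp in mitoxantrone replica 1 and 50 bp in the other 5 replicas. Nothing in the labels says that replicas came from separate cultures, so p-values measure only the spread between these samples, which may be technical.

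TOP2A and TOP2B pass 1 DNA duplex through another by cutting both strands while each enzyme subunit stays covalently joined to a 5′ end. Etoposide and mitoxantrone are topoisomerase II poisons, which hold the enzyme in that cleaved, DNA-bound state. Without a crosslinking agent, DNA is expected in the pulldown chiefly where the enzyme is covalently attached. Gamma satellite arrays of chromosomes 8 and X have been reported to bind CTCF and Ikaros and to act as barriers to the spread of heterochromatin. Sequences and coordinates of the regions were not used here, so none is shown, and levels of different regions, which differ in length, cannot be compared as densities.

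Reads assigned to named regions numbered 23900 to 3207823 per library (median 351072). Gamma satellite reads numbered 87 to 21820 per library (median 2844.5) and 200855 in all. A share below is the percentage of a library's named-region reads, with a 95% Wilson interval that covers counting error only. Between 21.1% and 68.3% of a library's reads were left unassigned for low mapping quality. Reads that fit several repeat copies equally well fall in that class, so counts of regions with near-identical copies are uncertain.

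The gamma satellite signal was concentrated on chromosome 8. Its 13 regions held 78.8% of all gamma satellite reads, and the 4 regions of chromosome 12 held 11.2%. The single region of chromosome X held 3.16%, the 5 of chromosome 9 held 1.71% and the 8 of chromosome 21 held 1.69%. CPM below are a region's reads scaled to a common total of named-region reads per library. The 5 regions with the highest mean CPM held 70.9% of the reads and the first 10 held 87.7%. No library had a read in 5 regions: both regions of chromosome 4, gsat_21_2, gsat_Y_3 and gsat_Y_4. A library had reads in 14 to 57 of the 64 regions (median 44.5).

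These are shares of reads pooled over libraries, so the deeper libraries weigh more. In the median library chromosome 8 held 86.4%, chromosome 12 7.36%, chromosome X 2.41%, chromosome 21 0.988% and chromosome 9 0.949%.

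By tag, GSAT held 69.5% of the pooled gamma satellite reads. The pair of chromosome 12 regions tagged GSATII with rnd-6_family-1431 held 10.7%, and the 3 chromosome 8 regions tagged GSATX with GSATII held 9.25%. GSATX held 4.32%, plain GSATII 3.31% and GSATII with TAR 2.92%. In the median library GSAT held 78.8% (range 49.5% to 89.3%), GSATX with GSATII 7.80% and GSATII with rnd-6_family-1431 7.01%, so the order of the last pair was the reverse of that in the pooled reads. GSATX held 3.16% there, plain GSATII 2.05% and GSATII with TAR 1.57%. The tag GSAT was therefore almost wholly a chromosome 8 signal: its single region elsewhere, gsat_Y_2, had 10 reads over all libraries. Plain GSATII regions, the largest tag by number, lay mainly on acrocentric chromosomes and were thinly covered. The highest of them was gsat_21_4, at a mean of 79.1 CPM.

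The most covered region was gsat_8_7, a GSAT region, at a mean of 2845 CPM over all libraries (range 706 to 7255). The GSAT regions gsat_8_6 and gsat_8_13 followed at 1604 and 1489. The chromosome 12 region gsat_12_2 stood at 785, and the GSAT regions gsat_8_12 and gsat_8_11 at 566 and 478. The GSATX with GSATII regions gsat_8_3, gsat_8_2 and gsat_8_1 stood at 297, 286 and 210, and the GSATX region gsat_X_1 at 281. Of the GSATII with TAR regions, gsat_14_3 and gsat_9_3 were the highest, at 53.6 and 49.1. Every one of these regions varied several-fold between libraries.

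**Figure D1:**
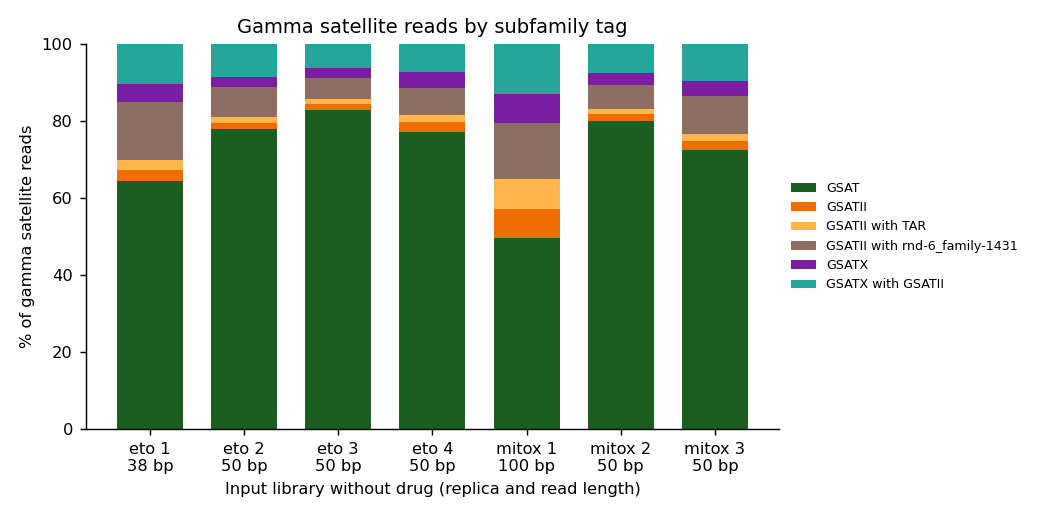
Percentage of gamma satellite reads (vertical axis) by tag in the input library without drug of each replica, with the read length in bp below it (eto, etoposide series; mitox, mitoxantrone series). GSAT is the largest block in every bar, at 49.5% in mitoxantrone replica 1, the 100 bp replica, and 64.5% to 82.9% in the others.

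The make-up of the gamma satellite reads differed between replicas. Over the 6 libraries of each replica, all tags that begin with GSATII, TAR and rnd-6_family-1431 combinations included, made up 26.5% of gamma satellite reads in mitoxantrone replica 1, the 100 bp replica. They made up 19.2% in etoposide replica 1, the 38 bp replica. In the 5 replicas of 50 bp they made up 7.79% to 14.3%. The 2 replicas with other read lengths thus had the highest GSATII parts. Read length and replica cannot be told apart here.

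The share of gamma satellite reads also varied more between replicas than between kinds of library. Without drug, input held 1.38%, 0.286%, 1.48% and 2.12% in etoposide replicas 1 to 4, and 1.22%, 1.96% and 0.475% in mitoxantrone replicas 1 to 3. TOP2A pulldown held 0.493%, 0.267%, 1.24% and 0.583% in the etoposide replicas and 1.74%, 1.21% and 0.251% in the mitoxantrone replicas. TOP2B pulldown held 0.576%, 0.235%, 1.33% and 0.644%, and 1.60%, 1.69% and 0.372%. Both pulldowns lay below their own input in 6 of 7 replicas and above it in mitoxantrone replica 1. Groups overlapped widely when replicas were pooled, so differences are given within replicas.

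**Figure D2:**
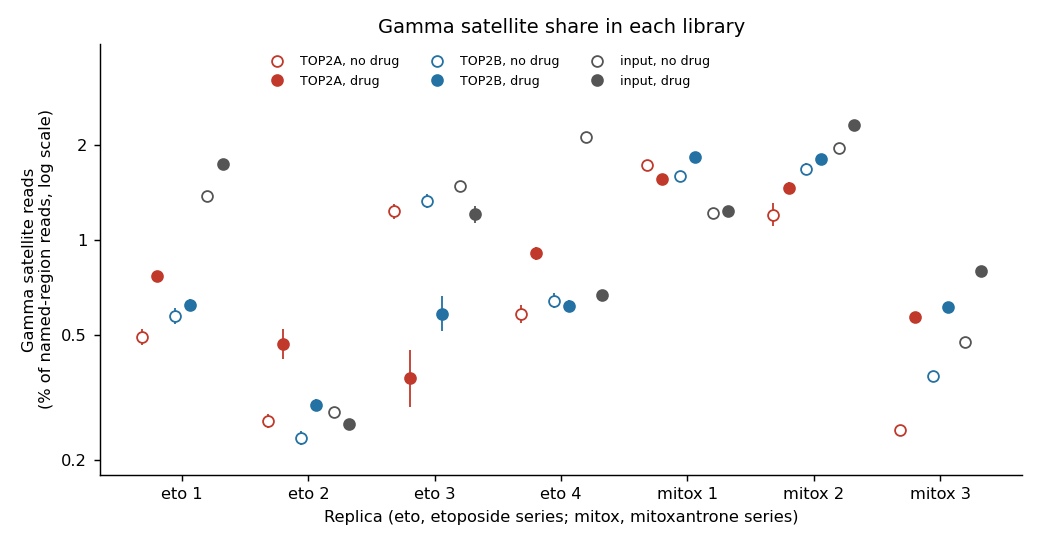
Gamma satellite reads as a percentage of named-region reads in each of the 42 libraries (log scale), by replica, with open points for no drug, filled points for drug, and 95% Wilson intervals as bars. Within etoposide replicas 1 and 4 the no-drug pulldowns lie well under the no-drug input, and in mitoxantrone replica 1 they lie above it.

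The first comparison asked whether gamma satellite DNA was enriched in either pulldown without drug. It was not: its share was lower than in input. The log2 difference within replicas averaged -0.69 (SD 0.82, n = 7) for TOP2A, a 0.621-fold share, and ranged from -1.86 to 0.51. For TOP2B it averaged -0.51 (SD 0.72, n = 7) and ranged from -1.72 to 0.39. The direction was shared by 6 of 7 replicas for each antibody, and the exception was mitoxantrone replica 1 for both. The shares were summed over the regions, and no test was made of the sum.

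All tested regions lay on the same side. In the edgeR quasi-likelihood fit of the 21 no-drug libraries with replica as a block, 21 of the 64 gamma satellite regions had enough reads to be tested, among 1028 regions. Every one of the 21 had an estimate below 0 for TOP2A against input, where 51.9% of all tested regions did. The same held for TOP2B, where 52.8% of all tested regions did. The median estimate over the gamma satellite regions was -0.83 for TOP2A, beside -0.01 over all regions, and -0.66 for TOP2B, also beside -0.01. Counts within 1 set of libraries are not independent, since all regions share its scaling.

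No single region passed the test over all regions. At an edgeR Benjamini-Hochberg adjusted p of 0.05, 0 of 21 gamma satellite regions were called for TOP2A or TOP2B, where 0% of all regions were called. At an unadjusted p of 0.05, 15 of 21 lay below it for TOP2A, against 14.7% of all regions, and 13 of 21 for TOP2B, against 6.91%. DESeq2 called 7 of 21 lower for TOP2A, where it called 2.53% of all regions, and 0 for TOP2B, where it called 0%. It gave 17 and 14 at an unadjusted p of 0.05, where 15.4% and 8.75% of all regions lay. The 7 were gsat_12_2, gsat_8_1, gsat_8_2, gsat_8_3, gsat_8_9, gsat_8_11 and gsat_X_1. Without the filter on low counts, edgeR called 10 of 59 for TOP2A, against 1.67% of all regions. Without mitoxantrone replica 1, the exception named above, edgeR called 14 of 18 lower for TOP2A, against 4.91% of all regions, with a median estimate of -1.19. It called 0 for TOP2B there, beside 0% of all regions. Leaving out any other single replica gave 0 gamma satellite calls for TOP2A, beside at most 0.0858% of all regions.

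**Figure D3:**
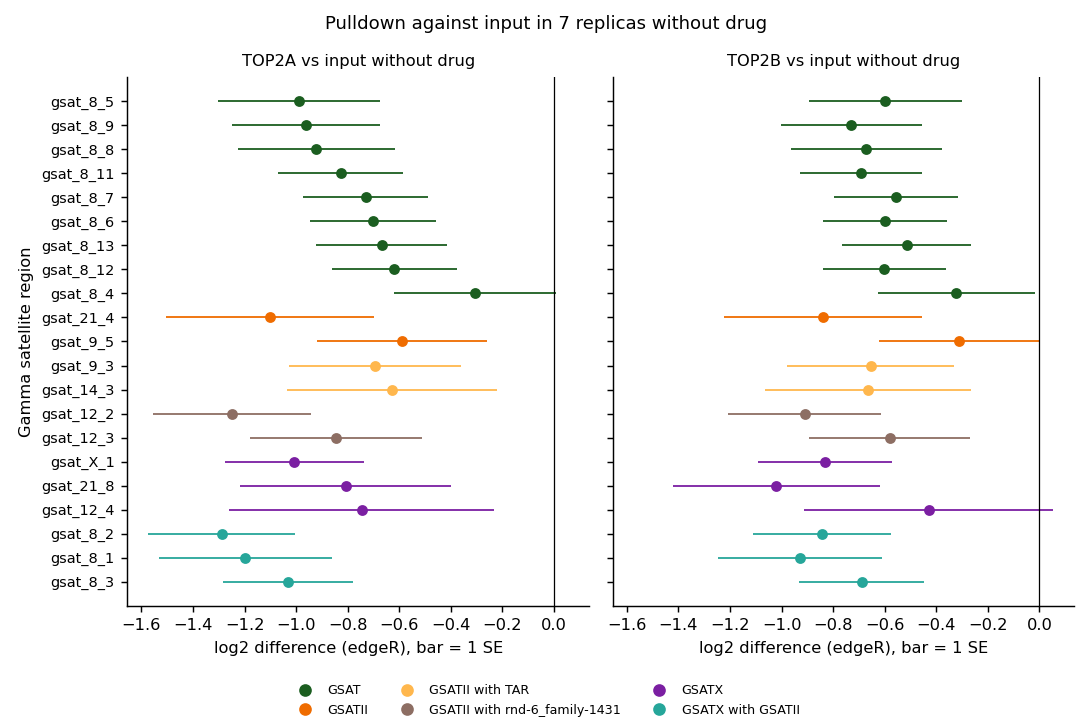
edgeR log2 difference between pulldown and input without drug (horizontal axis, 7 replicas, bars 1 standard error) for the 21 tested gamma satellite regions, coloured by tag, for TOP2A and TOP2B. Every point lies below 0, and for TOP2A the 3 GSATX with GSATII regions lie between -1.29 and -1.03.

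The most negative estimates for TOP2A were those of gsat_8_2, gsat_12_2, gsat_8_1 and gsat_21_4, the last a GSATII region at -1.10 (SE 0.40, edgeR adjusted p = 0.226). In gsat_8_2, input without drug held 526, 66.5, 306 and 644 CPM in etoposide replicas 1 to 4 and 674, 465 and 151 in mitoxantrone replicas 1 to 3. TOP2A pulldown held 125, 42.4, 189 and 116, and 689, 159 and 62.8. The pulldown was the lower in 6 of 7 replicas and near its input in the other, mitoxantrone replica 1. The edgeR log2 estimate was -1.29 (SE 0.28, edgeR adjusted p = 0.134). For TOP2B, with 241, 45.7, 249 and 119, and 699, 311 and 117 CPM, the estimate was -0.84 (SE 0.27, adjusted p = 0.459).

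In gsat_12_2, input held 1873, 195, 790 and 1377 CPM in the etoposide replicas and 1690, 1127 and 426 in the mitoxantrone replicas. TOP2A pulldown held 415, 131, 347 and 310, and 2623, 318 and 214. It was lower in 6 of 7 replicas, and mitoxantrone replica 1 was the exception. The edgeR estimate was -1.25 (SE 0.31, adjusted p = 0.134) for TOP2A and -0.91 (SE 0.30, adjusted p = 0.459) for TOP2B.

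The most covered GSAT region differed by less. In gsat_8_7, input held 3495, 879, 4675 and 6344 CPM in the etoposide replicas and 2336, 5910 and 1276 in the mitoxantrone replicas. TOP2A pulldown held 1432, 874, 3947 and 1757, and 3375, 4160 and 706. The 2 kinds of library overlapped, though the pulldown was lower in 6 of 7 replicas. The estimate was -0.73 (SE 0.24, adjusted p = 0.177) for TOP2A and -0.56 (SE 0.24, adjusted p = 0.658) for TOP2B. The GSATX region gsat_X_1 had estimates of -1.01 and -0.83. The smallest estimate for TOP2A was that of gsat_8_4, a GSAT region, at -0.31.

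By tag, the median edgeR estimate for TOP2A was -0.73 over 9 GSAT regions, -0.81 over 3 GSATX regions and -1.20 over 3 GSATX with GSATII regions. For TOP2B the 3 medians were -0.60, -0.83 and -0.84. The other 3 tags had 2 tested regions each, with medians between -1.05 and -0.66 for TOP2A and between -0.75 and -0.58 for TOP2B. Only gsat_8_9, a GSAT region, lay lower in the pulldown in all 7 replicas, for both antibodies. That is 1 of 21 regions, where 0.778% of all tested regions did so for TOP2A and 1.17% for TOP2B.

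Other measures moved with the gamma satellite share in some replicas. Summed beta satellite also lay below input in 6 of 7 replicas, with a mean log2 difference of -0.36 for TOP2A (SD 0.36) and -0.34 for TOP2B (SD 0.26), and it too was higher in mitoxantrone replica 1. Summed monomeric alpha satellite differed from input by -0.06 to 0.07 for TOP2A in 5 replicas, and there the gamma satellite differences were -1.48, -0.10, -0.26, 0.51 and -0.92. In etoposide replica 4 the monomeric alpha satellite difference was -0.48 and in mitoxantrone replica 2 it was 2.86, beside gamma satellite differences of -1.86 and -0.70. The part of these measures in the gamma satellite differences was not tested.

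Within the gamma satellite reads, the GSAT part was larger in the pulldown than in input in 7 of 7 replicas, for each antibody. In input without drug it was 64.5%, 77.9%, 82.9% and 77.1% in the etoposide replicas and 49.5%, 80.1% and 72.4% in the mitoxantrone replicas. In TOP2A pulldown it was 74.5%, 83.7%, 85.9% and 79.3%, and 50.9%, 89.3% and 74.5%. The difference averaged 4.78 percentage points (SD 3.58, n = 7), from 1.33 to 10.0. For TOP2B it averaged 3.21 points (SD 2.10, n = 7), from 0.678 to 6.52. This quantity was chosen after the values were seen, and both antibodies share the inputs, so it is a description with no test. The 95% Wilson intervals of TOP2A pulldown and input overlapped in etoposide replicas 3 and 4 and mitoxantrone replicas 1 and 3. Those of TOP2B pulldown and input overlapped in etoposide replicas 2 and 3 and mitoxantrone replica 3.

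**Figure D4:**
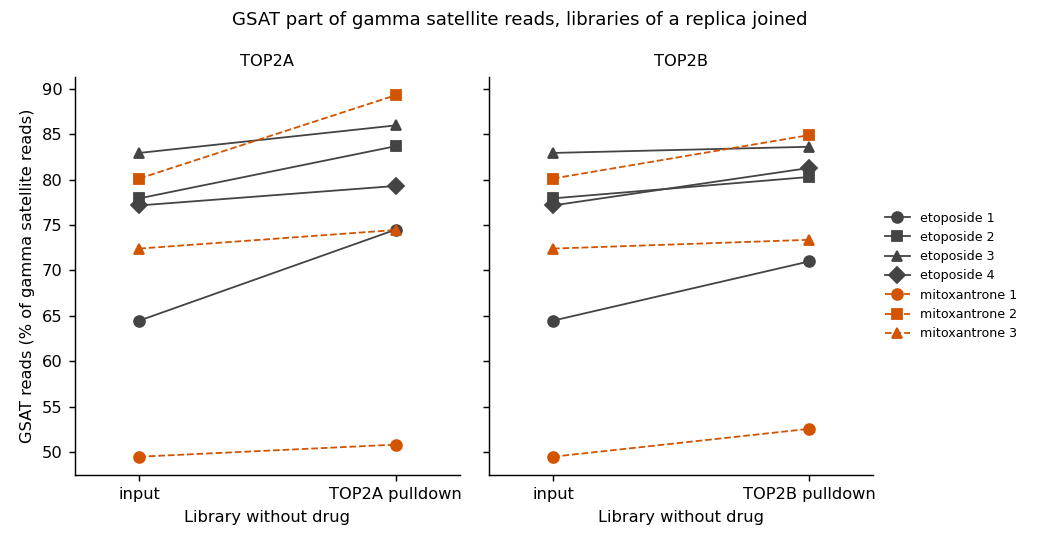
GSAT reads as a percentage of gamma satellite reads (vertical axis, which starts above 0) in the no-drug input and pulldown, with lines that join the libraries of a replica. All 7 lines slope upward from input to TOP2A and to TOP2B pulldown, most steeply in etoposide replica 1.

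The larger GSAT part went with smaller parts for other tags. The part of GSATII with rnd-6_family-1431 was lower in both pulldowns than in input in every replica except mitoxantrone replica 1. There it was 15.7% in TOP2A and 15.1% in TOP2B pulldown, beside 14.4% in input. The part of GSATX with GSATII lay lower in the pulldown in 7 of 7 replicas. For GSATX with GSATII the mean difference was -2.11 points for TOP2A (SD 1.30) and -1.01 points for TOP2B (SD 0.67). Chromosome 8 carries both GSAT and GSATX with GSATII. The log2 ratio of chromosome 8 GSAT to GSATX with GSATII was higher in TOP2A pulldown than in input by 0.51 (SD 0.40, n = 7). For TOP2B it was higher by 0.25 (SD 0.16, n = 7). With drug the GSAT part was less regular. With etoposide it was higher than in input in 2 of 4 replicas for TOP2A and 4 of 4 for TOP2B, and with mitoxantrone in 2 of 3 for each.

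Without drug, the difference in gamma satellite share between the TOP2A and TOP2B pulldowns was smaller on average than its spread. The log2 difference, TOP2A minus TOP2B, averaged -0.17 (SD 0.28, n = 7), and TOP2A was lower in 5 of 7 replicas. Of the tested regions, 18 of 21 had an edgeR estimate below 0, beside 54% of all regions, with a median of -0.23. Neither edgeR nor DESeq2 called a gamma satellite region, where each called 0% of all regions. None of the 21 had an unadjusted p below 0.05, where 0.195% of all regions did by edgeR and 0.292% by DESeq2. The region gsat_8_2 was lower with TOP2A in 7 of 7 replicas, with a mean log2 difference of -0.47 (SD 0.43), and it was the only one of the 21 to be so, where 1.26% of all regions were.

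Etoposide gave no common direction in TOP2A pulldown. The gamma satellite share went from 0.493% to 0.769% in replica 1, from 0.267% to 0.469% in replica 2 and from 0.583% to 0.910% in replica 4. In replica 3 it went from 1.24% to 0.364% (interval 0.295% to 0.449%, from 87 reads). It was thus higher with drug in 3 replicas, by 0.64 to 0.81 on the log2 scale, and lower in the other, where the difference was -1.76. The mean log2 difference was 0.08 (SD 1.23, n = 4). Without replica 3 it was 0.70.

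In TOP2B pulldown the share went from 0.576% to 0.624%, from 0.235% to 0.301%, from 1.33% to 0.585% and from 0.644% to 0.619%. The mean log2 difference was -0.19 (SD 0.68, n = 4), with 2 replicas higher and 2 lower. In input it went from 1.38% to 1.75%, from 0.286% to 0.261%, from 1.48% to 1.21% and from 2.12% to 0.668%. The mean was -0.44 (SD 0.87), with 3 replicas lower, and replica 4 had the largest difference, at -1.67. Every one of these means was smaller than its spread.

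The etoposide fit tested 20 of the 64 gamma satellite regions among 1068. Estimates lay above 0 for 16 of 20 in TOP2A pulldown (44.6% of all regions), and below 0 for 20 of 20 in TOP2B pulldown (45.6%) and for 20 of 20 in input (42.5%). The medians were 0.30, -0.48 and -0.44. Leaving out 1 replica, with the filter applied again, moved each of these counts. Without replica 1, 8 of 16 lay above 0 in TOP2A (median -0.07). Without replica 3, 14 of 29 lay above 0 in TOP2B (median -0.02). Without replica 4, 14 of 20 lay above 0 in input (median 0.10). edgeR and DESeq2 called none of the 20 in the 3 comparisons, where 0% of all regions were called by edgeR. None of the 20 had an unadjusted p below 0.05 by either tool, and with the replica as a block edgeR gave 1 of 20 in TOP2B, where 3.84% of all regions had one. Of all regions, 0.655% in TOP2A, 0.749% in TOP2B and 0% in input did by edgeR, and 1.31%, 0.749% and 0% by DESeq2. In gsat_8_7 the edgeR estimates were 0.07 (SE 0.67), -0.48 (SE 0.68) and -0.51 (SE 0.67), each smaller than its error.

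Extremes were taken among regions with a mean of at least 10 reads over all libraries of the series, input included. The largest positive mean difference in TOP2A pulldown was that of gsat_12_4, a GSATX region. Its mean difference within replicas was 1.30 (SD 1.36) and positive in 4 of 4, which 2 of the 20 tested regions and 2.34% of all regions were. Of its no-drug and drug values, 0 reads were listed for both in replica 2 and for the drug library in replica 3, so those differences rest on the pseudocount and on library size. In replica 3 the observed value itself fell with drug, to 0. The most negative was that of gsat_X_1, at -0.31 (SD 1.89), which was higher with drug in the other 3 replicas and had 0 reads in the drug library of replica 3. In TOP2B pulldown the most negative was that of gsat_8_4, a GSAT region, which went from 35.2, 14.2, 46.1 and 39.8 CPM to 20.2, 6.58, 0 and 14.0. It was lower in 4 of 4 replicas, with a mean difference of -1.32 (SD 0.52), and 2 of the 20 tested regions and 6.27% of all regions were lower in all 4. Each of these TOP2B libraries held fewer than 10 reads of gsat_8_4. The replica 3 difference rests on the pseudocount. These regions were picked as extremes, so the values are descriptions.

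**Figure D5:**
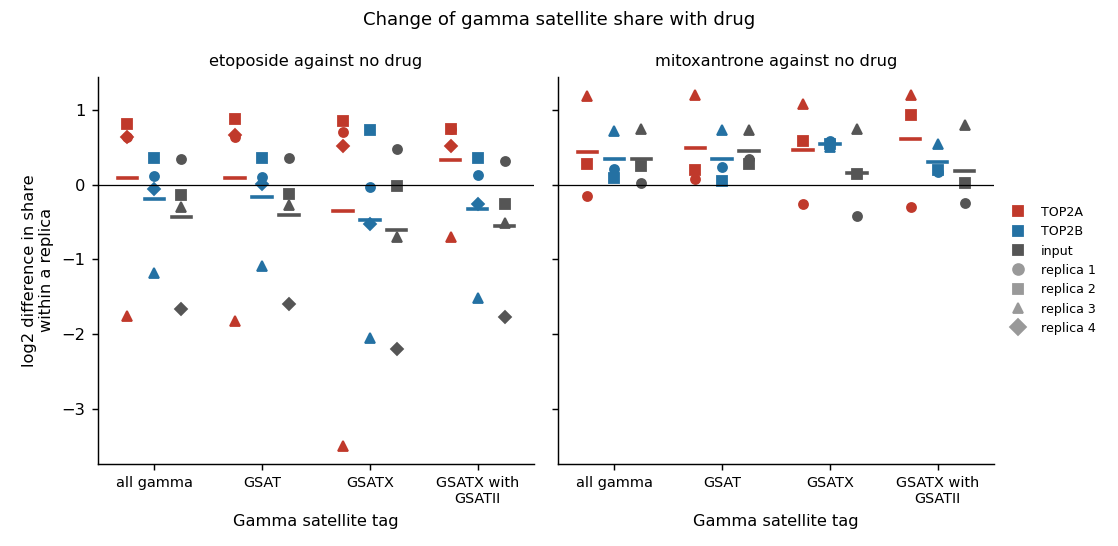
Log2 difference in share between drug and no drug within each replica (vertical axis; shape marks the replica and the bar the mean) for all gamma satellite regions and 3 tags, in TOP2A, TOP2B and input, for etoposide and mitoxantrone. Etoposide replica 3 lies lowest in both pulldowns, and mitoxantrone replica 3 lies highest for all gamma satellite in all 3 kinds of library.

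Monomeric alpha satellite also differed between drug and no drug, and its largest differences, in 3 replicas, had the opposite sign to those of gamma satellite. In etoposide replica 3, its share was higher with drug by 2.56 in TOP2A, 2.17 in TOP2B and 1.22 in input on the log2 scale. In etoposide replica 4 it was higher by 2.65 in TOP2B and 2.12 in input. In mitoxantrone replica 3 the 3 differences were -2.43, -2.71 and -1.93. In etoposide replicas 1 and 2, where monomeric alpha satellite input differed by 0.06 and 0.02, gamma satellite input differed by 0.35 and -0.13. Whether this accompanying difference accounts for any of the gamma satellite change was not tested.

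Gamma satellite shares were higher with mitoxantrone than without it in most replicas. In TOP2B pulldown the share went from 1.60% to 1.84%, from 1.69% to 1.80% and from 0.372% to 0.613%. The log2 difference averaged 0.34 (SD 0.33, n = 3). In TOP2A pulldown it went from 1.74% to 1.57%, from 1.21% to 1.46% and from 0.251% to 0.572%, with a mean of 0.44 (SD 0.69). In input it went from 1.22% to 1.24%, from 1.96% to 2.33% and from 0.475% to 0.799%, with a mean of 0.34 (SD 0.37). TOP2B and input were higher in 3 of 3 replicas, and TOP2A in 2 of 3. The mean differences in TOP2B and in input were the same to 2 decimals.

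The mitoxantrone fit tested 41 of the 64 gamma satellite regions among 1416. Estimates lay above 0 for 36 of 41 in TOP2B pulldown (51.2% of all regions), and 19 of 41 were higher in all 3 replicas, where 11.3% of all regions were. In input, 21 of 41 lay above 0 (43.6%), with the replica as a block 35 of 41 did, and without replica 1, 2 or 3 the count was 32 of 38, 21 of 50 and 16 of 41. In TOP2A pulldown 27 of 41 lay below 0 (53.2%), with a median of -0.32. With the replica as a block the direction turned: 27 of 41 lay above 0, with a median of 0.21. It also turned without replica 1, the 100 bp replica: 34 of 38 lay above 0, with a median of 1.20. For the blocked and leave-one-out fits no share of all regions is given beside these counts. No region of the 41 was called by edgeR or DESeq2 in the 3 comparisons, where edgeR called 0% of all regions. None of the 41 had an unadjusted p below 0.05 by either tool. Of all regions, 0.353% in TOP2A, 0.212% in TOP2B and 0.0706% in input did by edgeR, and 0.494%, 0.212% and 0.0706% by DESeq2. These tests did not use the pairing of libraries within a replica. With the replica as a block edgeR also gave 0 of 41 in each comparison. Of all regions, 1.55%, 1.34% and 0.636% had such a p there.

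By tag, GSAT estimates lay above 0 in most settings, and GSATII estimates in TOP2A pulldown and input changed sign with the setting. Of the 9 tested GSAT regions, 9 lay above 0 in TOP2A pulldown (median 0.30), 8 in TOP2B pulldown (median 0.24) and 9 in input (median 0.31). With the replica as a block 9 of 9 did in all 3. Of the 13 tested GSATII regions, 0 lay above 0 in TOP2A pulldown (median -0.51), 12 in TOP2B pulldown (median 0.37) and 4 in input (median -0.16). With the replica as a block the counts were 5, 13 and 10, and the medians -0.12, 0.73 and 0.28. Without replica 1, 9 of 11 GSATII regions lay above 0 in TOP2A pulldown, with a median of 1.19. Without replica 3, 6 of 9 GSAT regions (median 0.09) and 11 of 14 GSATII regions (median 0.23) lay above 0 in TOP2B pulldown. A difference between tags was not tested. Within replicas, the summed GSATII share in TOP2A pulldown was higher with drug in 2 of 3, with a mean of 0.24 (SD 0.70).

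Extremes in the mitoxantrone pulldowns lay among the thinly covered tags. In TOP2B pulldown gsat_9_2, a GSATII with TAR region, went from 98.2, 7.97 and 6.69 CPM to 156, 33.1 and 14.4, a mean difference of 1.12 (SD 0.47). The region gsat_15_1, of the same tag, had the most negative difference, at -0.66 (SD 0.50), with 0 reads in both replica 2 libraries. In TOP2A pulldown gsat_12_3, of the tag GSATII with rnd-6_family-1431, had the largest positive difference, at 1.45 (SD 1.81), and gsat_9_1, a GSATII with TAR region, the most negative, at -0.96 (SD 2.81). Both rest on replica 2, in which gsat_12_3 had 0 reads without drug and gsat_9_1 had 0 reads with it.

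Setting the drug difference in a pulldown against that in its input left no regular change. For etoposide the summed difference averaged 0.52 (SD 1.57, n = 4) in TOP2A and 0.24 (SD 1.07) in TOP2B. For mitoxantrone it averaged 0.10 (SD 0.31, n = 3) and 0.00 (SD 0.17). The etoposide TOP2A estimates lay above 0 for 19 of 20 regions (43.7% of all regions), and 5 of 20 were higher in all 4 replicas, where 3.56% of all regions were. Those 5 were gsat_12_4, gsat_8_1, gsat_8_2, gsat_8_4 and gsat_8_9. For gsat_12_4 the TOP2A part of this difference in replicas 2 and 3 rests on the pseudocount, as said above. Without replica 4, 8 of 20 lay above 0, with a median of -0.08. For etoposide TOP2B, 9 of 20 lay above 0 (49.3%), 13 with the replica as a block, and none of 20 without replica 4. For mitoxantrone, 14 of 41 did in TOP2A (54.4%), or 30 of 38 without replica 1, and 31 of 41 in TOP2B (55.7%). Gamma satellite calls by edgeR and DESeq2 were 0 in these 4 comparisons, where edgeR called 0% of all regions. No gamma satellite region had an unadjusted p below 0.05. Of all regions, 0.468% did for etoposide in TOP2A and 0% in the other 3, by either tool.

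With etoposide present, the gamma satellite share in TOP2A pulldown lay below its input in 2 of 4 replicas and above it in the other 2. The summed log2 difference averaged -0.40 (SD 1.24), and 0.036 without replica 1. The TOP2B share lay below input in 3 of 4 replicas, with a mean of -0.61 (SD 0.79). Estimates lay below 0 for 20 of 20 tested regions for each antibody, where 60.8% of all regions did for TOP2A and 55.7% for TOP2B. Without replica 1, 9 of 16 did for TOP2A, with a median of -0.04 in place of -0.73, and 16 of 16 for TOP2B, with a median of -0.67 in place of -1.47. No region was lower in all 4 replicas for TOP2A (6.74% of all regions), and 8 of 20 were for TOP2B (7.77%). Neither edgeR nor DESeq2 called a gamma satellite region in either comparison, where edgeR called 0% of all regions. For TOP2B, 1 had an unadjusted p below 0.05 in the edgeR fit (1.03% of all regions), 6 with the replica as a block (2.72%) and 3 in DESeq2 (2.06%). For TOP2A none did, where 2.53% of all regions did by edgeR and 3.37% by DESeq2. With mitoxantrone the summed differences from input were -0.27 (SD 0.54) and -0.06 (SD 0.55), lower in 2 of 3 replicas for each. Estimates lay below 0 for 25 of 41 regions for TOP2A (47.3%) and 13 of 41 for TOP2B (44.7%), and for 35 and 28 with the replica as a block. Without replica 2, 19 of 50 did for TOP2A, and without replica 1, 28 of 38 did for TOP2B. With mitoxantrone, 0 gamma satellite regions were called, where edgeR called 0% of all regions. Of the 41, 0 had an unadjusted p below 0.05 by edgeR (0.212% and 0% of all regions) or DESeq2 (0.636% and 0.212%).

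With drug, the mean TOP2A minus TOP2B difference had opposite signs in the etoposide and mitoxantrone series. With etoposide TOP2A held the higher gamma satellite share in 3 of 4 replicas, with a mean log2 difference of 0.21 (SD 0.61), and 19 of 20 estimates lay above 0 (46.3%). That mean ranged from 0.06 to 0.50 when replicas were left out in turn. Over all 7 alternative settings its lowest value was 0.0066. With mitoxantrone TOP2A held the lower share in 3 of 3, with a mean of -0.21 (SD 0.10), and 38 of 41 estimates lay below 0 (53.7%). There, 20 of 41 regions were lower in all 3 replicas, where 14.1% of all regions were. Without drug, TOP2A also held the lower share in mitoxantrone replicas 2 and 3, and the higher in replica 1. In the etoposide series without drug it held the lower share in replicas 1, 3 and 4, and the higher in replica 2. Whether drug changed the TOP2A minus TOP2B difference was not tested. No gamma satellite region was called in either comparison with drug by edgeR or DESeq2, where edgeR called 0% of all regions. None had an unadjusted p below 0.05. With etoposide 1.97% of all regions had such a p by edgeR and 2.53% by DESeq2, and with mitoxantrone 0% by both. The blocked edgeR fit gave 1 such p with mitoxantrone (0.212% of all regions).

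The etoposide and mitoxantrone differences were compared in a joint fit of all 42 libraries, which tested 40 of the 64 regions among 1372. The doses differed, and no match of dose was made. The summed etoposide difference minus the mitoxantrone difference came to -0.35 for TOP2A, -0.53 for TOP2B and -0.78 for input DNA. Estimates lay above 0 for 26 of 40 regions in TOP2A (42.8% of all regions), and below 0 for 35 of 40 in TOP2B (46.4%) and 33 of 40 in input (40.7%). With the replica as a block, 12 of 40 lay above 0 in TOP2A, and without mitoxantrone replica 1, 6 of 30 did. Without etoposide replica 4, 23 of 42 lay below 0 in input, with a median of -0.09 in place of -0.55. In this fit 0 gamma satellite regions were called by edgeR or DESeq2, where edgeR called 0% of all regions. At an unadjusted p of 0.05 edgeR gave 1, in TOP2B, and DESeq2 none, and with the replica as a block edgeR gave 2 of 40 in TOP2B (5.39% of all regions). Of all regions, edgeR gave 0.437%, 0.729% and 0% in TOP2A, TOP2B and input, and DESeq2 gave 0.656%, 0.656% and 0%.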

How the data were processed

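The deposited table held read counts per region for 42 libraries. Per the submitters' processing notes, Trimmomatic 0.36, BWA 0.7.17 and HTSeq were used with the T2T-CHM13 build. The authors' counts were used as deposited, and 5 tallies of unassigned reads were kept out of library sizes. Shares were (gamma satellite reads + 0.5) over all named-region reads for log2 differences within a replica, without the 0.5 as percentages, and CPM were a region's counts scaled to named-region reads. The test was that of edgeR 4.0.16 under R 4.3.3 (quasi-likelihood, TMM factors, filterByExpr with a minimum count of 10, Benjamini-Hochberg over all regions tested, threshold 0.05, two-sided). Each series was fitted alone, the 21 no-drug libraries together with replica as a block, and all 42 together for the difference between drugs. The series and joint fits compared group means without the replica, so their tests did not use the pairing within replicas. DESeq2 1.42.0, its size factors, no filter, the replica block, a pseudocount of 5 and leaving out each replica were alternatives. Direction counts from blocked and leave-one-out fits are given without the share of all regions. They show only how the gamma satellite count moved. The fits were tested on simulated data drawn with less spread than the drug fits showed. The median biological coefficient of variation was 0.69, 0.71 and 0.73 in the etoposide, mitoxantrone and joint fits, and 0.24 in the no-drug fit. The simulation therefore does not show what size of change the drug fits could detect. Only the no-drug fit took out differences between replicas, through its block, so 0.24 cannot be set against the other values. None of the 54 pairs of replicate libraries was identical.

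The labels' replica number pairs the libraries of a replica: deviations of same-numbered libraries correlated above 0.1 in 18 of 21 pairs of groups (range -0.515 to 0.926). The members, tags and lists were chosen with earlier results of these data known. The text names the 10 regions with the highest mean CPM, the 2 highest of each tag, any past the threshold, and the most positive and most negative in each pulldown drug comparison among regions with a mean of at least 10 reads; others were chosen after their values were seen. Sums over regions were not tested.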

Additional observations from a re-analysis of the deposited data

Results flagged for a closer look

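Of 48 checks of groups of 4 libraries, 2 found a library far from the others, and chance gives about 1 in 20. In TOP2B pulldown with etoposide, replica 2 held 0.301% gamma satellite reads, the lowest, beside 0.585% to 0.624% in the other 3. In input with etoposide, replica 1 held 0.0396% GSATII with TAR reads, the highest, beside 0.00422% to 0.00905% in the other 3.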

How the results depend on the processing

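The number of gamma satellite regions called lower in TOP2A pulldown than in input without drug depended on the setting. It was 0 of 21 by edgeR, 7 with DESeq2 and 10 of 59 without the filter. When replicas were left out in turn, it was 14 without mitoxantrone replica 1 and 0 without any other. Without the replicate block it was 0, with 2 at an unadjusted p of 0.05 in place of 15. The block thus changed no count of gamma satellite regions called. The comparisons whose balance of directions it turned are given with both counts: mitoxantrone in TOP2A pulldown, TOP2B against input with mitoxantrone, the etoposide difference in TOP2B minus that in input, and etoposide minus mitoxantrone in TOP2A. Apart from runs that left out a replica, the other 156 alternatives of main results stayed within 1.5 times the count or within the spread between replicas. The call counts among them were 0 in both settings, and that spread was often wider than the mean difference. This rule is therefore a weak check. When replicas were left out in turn, the gsat_12_4 estimate for TOP2B against input without drug ranged from -0.63 to 0.036. The gsat_8_7 estimate for etoposide against no drug ranged from -0.30 to 0.81 in TOP2A, -0.71 to 0.057 in TOP2B and -1.11 to 0.036 in input. The summed gamma satellite difference from input without drug kept its sign in 10 of 10 alternatives, between -0.89 and -0.49 for TOP2A and between -0.66 and -0.31 for TOP2B. That for etoposide in TOP2A pulldown kept it in 4 of 7, between -0.16 and 0.70. Depth limited what could be tested: 20 of 64 regions in the etoposide series and 41 in the mitoxantrone series.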
